A study of Homo sapiens with 4 samples.

Results

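The HOX genes of clusters A to D were examined in RNA-seq libraries of NT2 cells. The members were all genes in the deposited tables whose symbol is HOXA, HOXB, HOXC or HOXD followed by a number. There were 39 of them among 62696 genes, with 11 in HOXA, 10 in HOXB, 9 in HOXC and 9 in HOXD. NT2, also written NTERA-2, is a human embryonal carcinoma cell line, grown here in DMEM with fetal bovine serum. The control group was 1 library from cells with an empty vector, whose genotype the labels give as wild type. The other group was 3 libraries labelled as HYDIN2 knockdown and numbered as replicates 1 to 3. HYDIN2 arose as an incomplete duplicate of HYDIN, which motile cilia need. The labels do not state the knockdown method or whether separate cultures were used, so the spread between them may be technical.

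HOX genes encode homeodomain transcription factors that give cells their position along the head-to-tail axis of the embryo and along the limbs. In each cluster, the genes with low numbers lie at one end and are switched on early and towards the head, and the genes with high numbers lie at the other end and are switched on late and towards the tail. In pluripotent cells the clusters are held largely silent by Polycomb proteins. NT2 cells are known for switching HOX genes on in their order along the cluster when they are treated with retinoic acid, which no label names here.

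The libraries differed in ways that bear on every value below. HYDIN2 itself had 12 counts in the control, 150 in labelled knockdown replicate 1, 112 in replicate 2 and 11 in replicate 3, so its level goes against the label in replicates 1 and 2. The knockdown libraries are therefore called labelled knockdown throughout. Totals ran from 25181737 to 62904698 counts, and the empty vector library and replicate 3 were the smaller pair. Values given in a row of 4 follow the order empty vector, then labelled knockdown replicates 1, 2 and 3. Levels are in CPM, the counts relative to the scaled library total, and brackets hold 95% intervals that cover counting error only. A floor of 3 counts, used in place of a count of 0, was 0.125, 0.0482, 0.0503 and 0.0960 CPM. The 95% interval of 0 counts reached higher, to 0.307 CPM in the empty vector library.

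Most HOX genes were near silent in all 4 libraries. At least 10 counts in at least 1 library were found for 27 of the 39 genes, which were 5 of HOXA, 10 of HOXB, 3 of HOXC and 9 of HOXD. The other 12 had 9 counts or fewer everywhere: HOXA2, HOXA3, HOXA4, HOXA5, HOXA6, HOXA11, HOXC5, HOXC6, HOXC9, HOXC10, HOXC11 and HOXC12. HOXC5 and HOXC10 had 0 counts in all 4 libraries. Every HOXB and HOXD gene thus reached 10 counts somewhere, while HOXA2 to HOXA6 and 6 of the 9 HOXC genes did not.

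Per library, 17, 17, 19 and 25 HOX genes had at least 10 counts. After scaling each library to the smallest total these numbers were 17, 16, 13 and 25, so labelled knockdown replicate 3 held the most detected HOX genes although it was the second smallest library. With a single count as the minimum the numbers were 29, 30, 27 and 35. At 0 were 10, 9, 12 and 4 HOX genes. With the same minimum, 29735, 35389, 34545 and 33206 of all 62696 genes were detected, also more in replicate 3 than in the empty vector library. No number over all genes was taken at equal depth, so these detection numbers do not set HOX genes apart. In bulk RNA, fewer cells expressing a gene and less RNA per cell cannot be told apart.

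**Figure D1:**
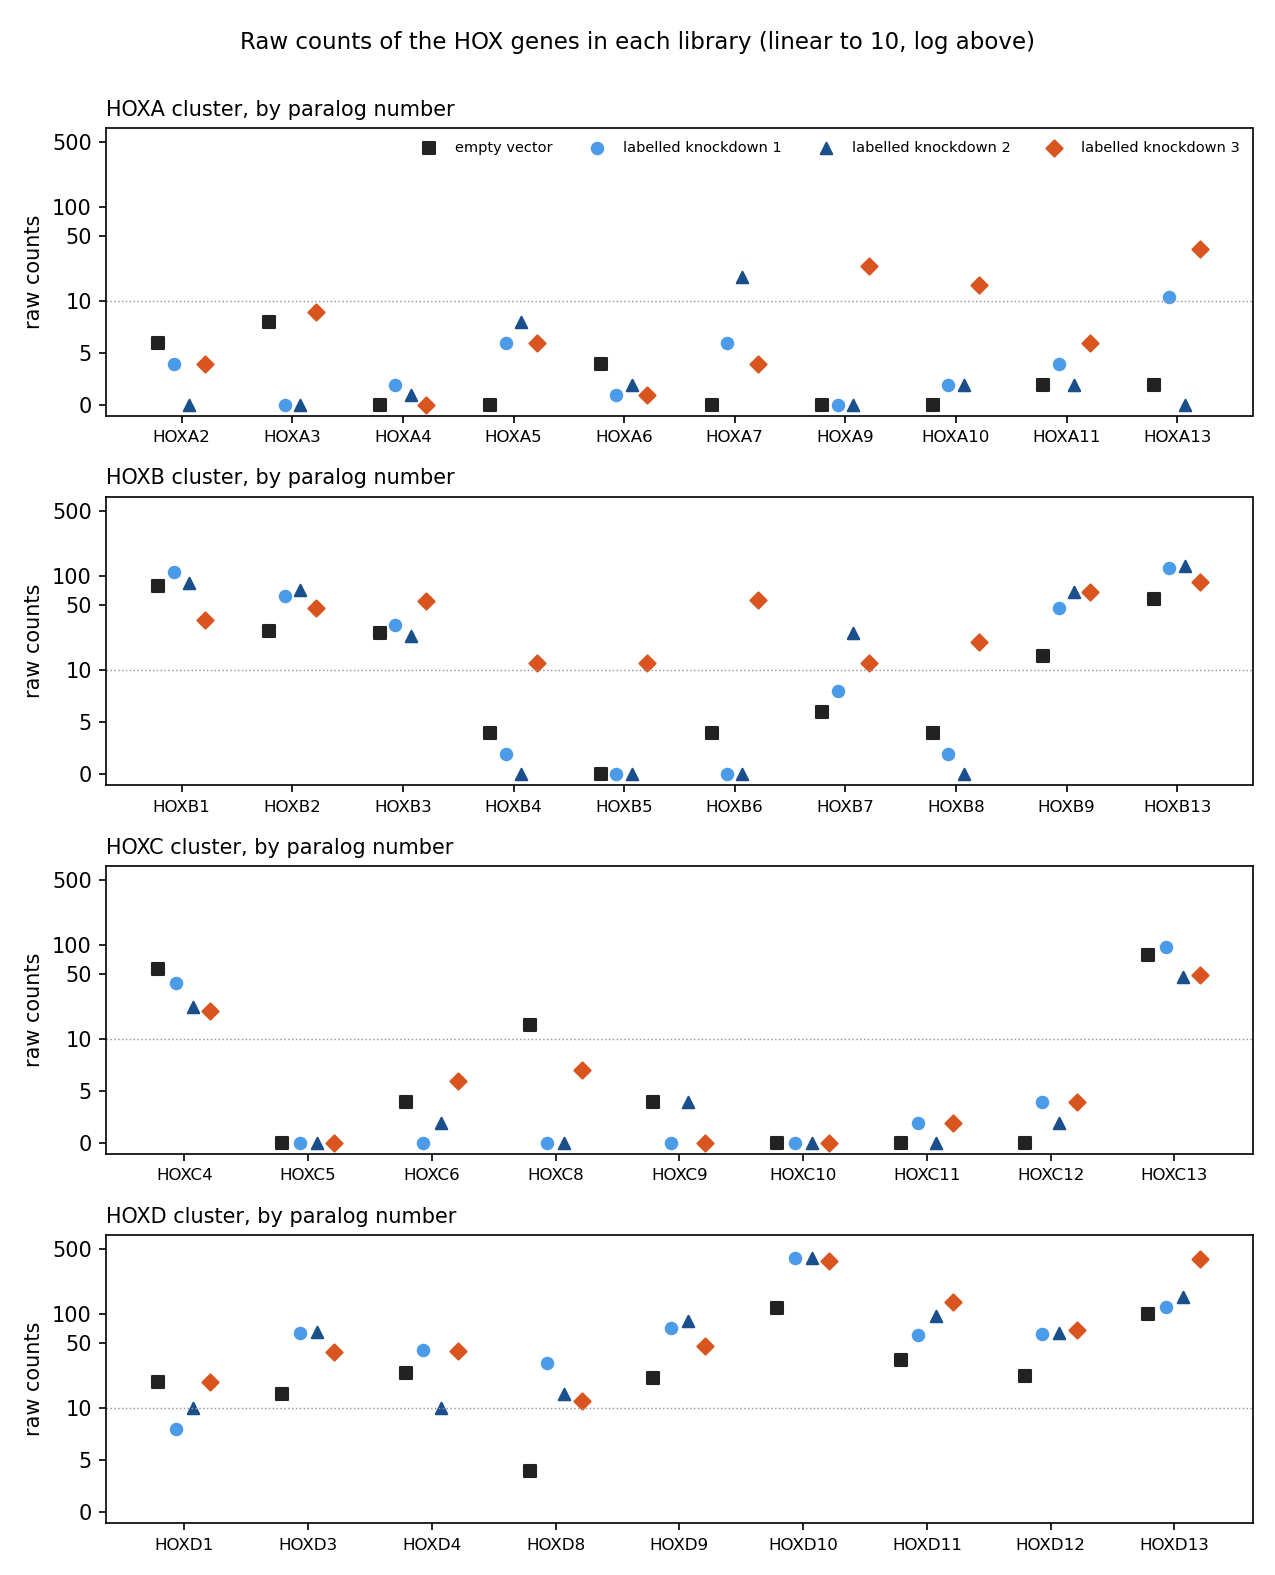
Raw counts of HOX genes in each library, 1 panel per cluster with genes ordered by paralog number. The vertical axis is linear to 10 and logarithmic above, and the dotted line marks 10 counts. Library totals differ, so counts are not levels. The HOXD panel holds counts of 10 or more for most genes in every library, the HOXC panel in every library only for HOXC4 and HOXC13, and replicate 3 (diamonds) holds the counts of 24 for HOXA9 and 56 for HOXB6 where the other libraries hold 0 to 4.

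Promoters of 4 of the better counted genes are shown, and a link between their sequences and the levels was not tested. The windows are RefSeq's on GRCh38.p14, from 250 bases before to 50 after the gene's start, written 5′ to 3′ on the gene's strand. Capitals mark the motifs found by letter on either strand: CCAAT, the form of the TATA box that reads TATAAA, and a form of the joint HOX and PBX binding site that reads TGATNNAT. HOXC4 lies on the plus strand at chr12:54016638-54016937 and RefSeq gives HOXC5 the same window. HOXB1 lies on the minus strand at chr17:48530962-48531261. HOXD13 and HOXD10 lie on the plus strand at chr2:176092471-176092770 and chr2:176116528-176116827.
HOXC4: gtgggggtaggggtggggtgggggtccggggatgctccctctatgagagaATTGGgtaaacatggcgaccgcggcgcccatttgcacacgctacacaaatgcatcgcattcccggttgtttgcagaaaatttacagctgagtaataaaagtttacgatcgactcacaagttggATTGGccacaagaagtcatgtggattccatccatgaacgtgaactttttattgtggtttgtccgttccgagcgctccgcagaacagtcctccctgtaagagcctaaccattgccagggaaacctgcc
HOXB1: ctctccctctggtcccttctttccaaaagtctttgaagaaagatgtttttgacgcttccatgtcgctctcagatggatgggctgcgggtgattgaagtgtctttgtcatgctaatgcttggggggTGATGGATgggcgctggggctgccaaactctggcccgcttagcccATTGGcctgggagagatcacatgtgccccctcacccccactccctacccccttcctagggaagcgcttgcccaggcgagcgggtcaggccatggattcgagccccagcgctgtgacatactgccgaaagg
HOXD13: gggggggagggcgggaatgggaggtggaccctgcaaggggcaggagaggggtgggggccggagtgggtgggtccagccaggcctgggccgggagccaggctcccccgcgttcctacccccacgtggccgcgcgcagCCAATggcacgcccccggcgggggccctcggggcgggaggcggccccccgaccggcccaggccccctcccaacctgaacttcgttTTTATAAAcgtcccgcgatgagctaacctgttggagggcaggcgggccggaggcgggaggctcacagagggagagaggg
HOXD10: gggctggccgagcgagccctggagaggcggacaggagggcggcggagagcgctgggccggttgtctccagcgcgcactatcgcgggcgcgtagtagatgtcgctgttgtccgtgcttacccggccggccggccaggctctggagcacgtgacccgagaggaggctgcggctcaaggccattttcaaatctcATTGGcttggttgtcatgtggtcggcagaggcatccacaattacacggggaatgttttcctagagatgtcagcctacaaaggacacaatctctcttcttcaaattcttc

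HOXC4, one of the pair of genes called lower below, held 2 CCAAT matches, and the other 3 windows held 1 each. HOXB1 also held 1 match to TGATNNAT. In HOXD13 the capitals near the start are 2 overlapping matches to TATAAA, 1 on each strand. GC content was 51.7% for HOXC4, 58.0% for HOXB1, 74.0% for HOXD13 and 60.0% for HOXD10, with 15, 11, 24 and 23 CpG dinucleotides.

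Windows were available for 20 of the 39 HOX genes, in 27 windows, some genes having several starts. CCAAT was found in 18 of the 27 windows, against 34.6% of 35116 windows of all genes. TATAAA was found in 5 of 27 and in 11.5% of all windows. TGATNNAT was found in 3 of 27 and in 7.40% of all windows. AGGTCA, the half-site read by retinoic acid receptors, was found in 0 of 27 and in 13.8% of all windows. HOX windows had a median GC content of 58.0% against 58.7% in all, and a median of 22.0 CpG dinucleotides against 14. A letter match is a description and not a bound site, and several HOX windows overlap.

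Summed over the 39 genes, HOX transcripts stood highest in labelled knockdown replicate 3. The sums were 783, 1449, 1452 and 1882 counts. As levels they were 32.6 CPM (29.5 to 36.0), 23.3 CPM (21.6 to 25), 24.3 CPM (22.6 to 26.2) and 60.2 CPM (56.5 to 64.2). The intervals of replicates 1 and 2 overlapped each other and lay below the empty vector library, and that of replicate 3 lay above it. The labelled knockdown libraries thus fell on both sides of the empty vector library.

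The 4 clusters did not share 1 pattern. HOXC was lower in all 3 labelled knockdown libraries, at 6.54, 2.30, 1.27 and 2.79 CPM. HOXA was at 2.08, 1.16, 1.29 and 8.80 CPM, HOXB at 9.12, 6.15, 6.70 and 12.9 CPM, and HOXD at 14.9, 13.7, 15.1 and 35.8 CPM. In HOXA, HOXB and HOXD the highest value was that of replicate 3.

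As ratios to the empty vector library, HOXC stood at 0.351 (0.251 to 0.490), 0.195 (0.129 to 0.290) and 0.426 (0.287 to 0.624) in replicates 1, 2 and 3, and none of these intervals held 1. The mean log2 difference of the HOXC sum was -1.68 ± 0.57 (SD over 3 libraries). In the other clusters the spread over the 3 libraries was as large as or larger than the mean: 0.19 ± 1.62 for HOXA, -0.17 ± 0.58 for HOXB and 0.39 ± 0.76 for HOXD. Replicate 3 stood at 4.23 times the empty vector library for HOXA (2.75 to 6.76), 1.41 times for HOXB (1.11 to 1.80) and 2.41 times for HOXD (2.03 to 2.86). Without replicate 3 these means were -0.75 for HOXA, -0.50 for HOXB and -0.05 for HOXD, while that for HOXC was -1.91.

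The makeup of the HOX counts also differed between libraries. HOXD took 45.6% of them in the empty vector library (40.6 to 50.7) and 58.7%, 61.9% and 59.4% in the labelled knockdown libraries. HOXC took 20.1% (16.2 to 24.4) and then 9.87%, 5.23% and 4.62%. HOXA took 6.39%, 4.97%, 5.30% and 14.6%, and HOXB 28.0%, 26.4%, 27.5% and 21.4%. The share of HOXC was lower in every labelled knockdown library than in the control, and its interval in the control did not meet the upper limit of 12.3% in replicate 1.

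By position along the clusters, paralogs 9 to 13, the tailward genes, made up 58.1%, 68.8%, 72.5% and 68.9% of HOX counts. Paralogs 1 to 3, the headward genes, made up 26.1%, 21.6%, 20.5% and 20.0%, and paralogs 4 to 8 made up 15.8%, 9.59%, 7.02% and 11.1%. Tailward genes therefore held most HOX counts in every library, and HOXD10 and HOXD13 alone held 28.1%, 35.5%, 38.2% and 40.2%.

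**Figure D2:**
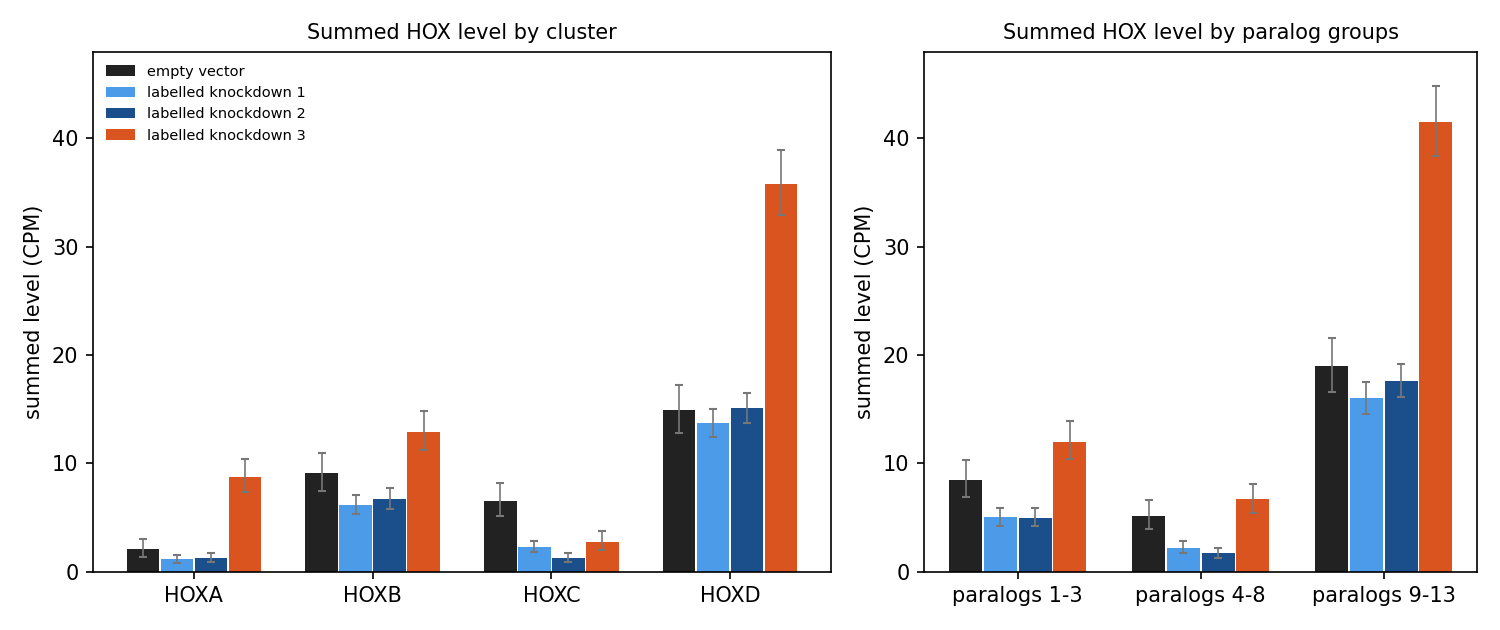
Summed HOX level in CPM (linear axis from 0) by cluster on the left and by groups of paralog number on the right, with 1 bar per library and exact 95% counting intervals. HOXC is highest in the empty vector library at 6.54 CPM, and the other clusters are highest in labelled knockdown replicate 3, with HOXD at 35.8 CPM.

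A gene was called when all 3 labelled knockdown libraries lay to the same side of the control with a log2 CPM at least 1 (2-fold) away. Only genes with a mean level of at least 1 CPM entered, which 11 HOX genes did, among them HOXB1, HOXB2, HOXB13, HOXC4, HOXC13, HOXD9, HOXD10, HOXD11, HOXD12 and HOXD13. Of these, 0 were called higher, where 3.65% of 15880 genes were, and 2 were called lower, HOXC4 and HOXC13, where 2.72% of all genes were. The other 28 HOX genes did not enter. With 1 control library these calls have no replicate check on the control side.

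Among the 11, the median of the mean log2 difference was 0.15, against -0.02 over all 15880 genes. It was -0.49 in replicate 1, -0.17 in replicate 2 and 0.72 in replicate 3, where all genes gave 0.03, 0.05 and -0.15. HOXD9, HOXD10 and HOXD12 lay above the empty vector library in all 3 libraries and HOXB1, HOXC4 and HOXC13 below it. The remaining 5 lay on different sides in different libraries.

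edgeR's quasi-likelihood test, whose spread comes from the 3 labelled knockdown libraries alone, called 0 of 26029 genes at a Benjamini-Hochberg adjusted threshold of 0.05 (0% of all), with 3023 at an unadjusted p under 0.05. It called 0 of the 27 HOX genes it tested, with 1 at an unadjusted p under 0.05. Without replicate 3 it called 11177 of 25016 genes (44.7%), 6 of 19 HOX genes among them: HOXB1, HOXB3, HOXC4, HOXC13, HOXD1 and HOXD13. Those 6 all lay below the empty vector library in replicates 1 and 2.

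**Figure D3:**
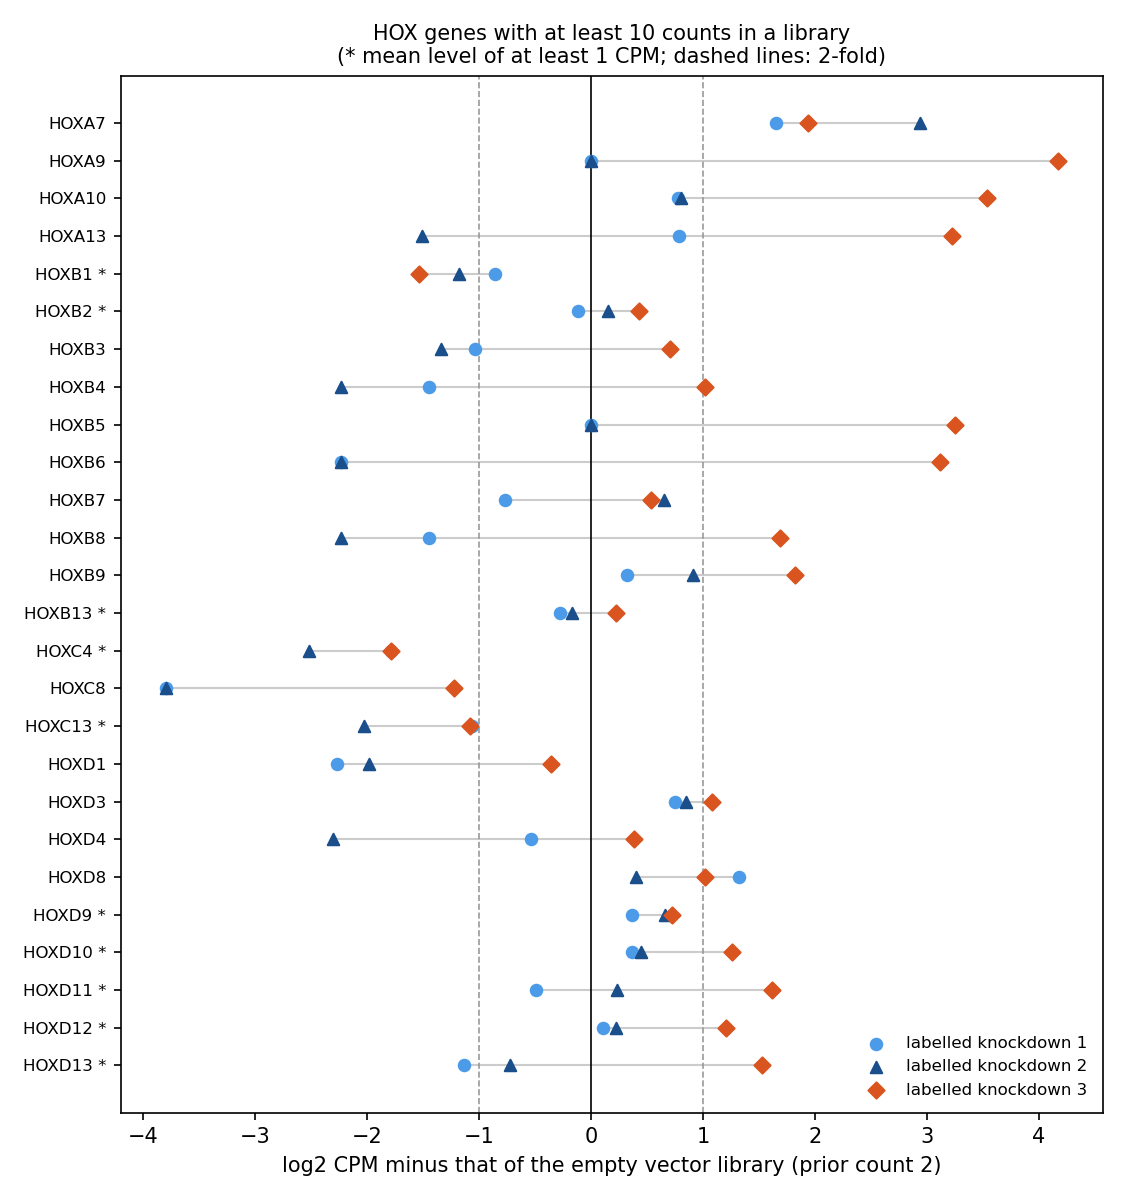
Difference in log2 CPM of each labelled knockdown library from the empty vector library, for HOX genes with at least 10 counts in a library. Asterisks mark genes with a mean level of at least 1 CPM and dashed lines mark 2-fold. HOXC4 and HOXC13 lie beyond the left dashed line in all 3 libraries, and replicate 3 (diamonds) lies to the right of the other libraries in most genes. Some of these genes reached 10 counts in replicate 3 alone. Genes of few counts depend on the prior count of 2.

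HOXC4, a gene of the fore part of the trunk that also acts in B cells, was called lower. It is ENSG00000198353.8 on chromosome 12 from 54016931 to 54056030, plus strand, GRCh38. It had 56, 40, 22 and 20 counts. The empty vector library had the most counts although it was the smallest. Levels were 2.33 CPM (1.55 to 3.37) against 0.642, 0.369 and 0.640 CPM, a mean of 0.550 ± 0.158 CPM (SD, n = 3). The control's interval lay above the upper limits of 0.992, 0.659 and 1.18 CPM in the labelled knockdown libraries.

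The ratios of HOXC4 to the control were 0.275 (0.147 to 0.507), 0.158 (0.0710 to 0.327) and 0.274 (0.119 to 0.582). Its mean log2 difference was -2.04 ± 0.42. Of its exon bases, 17.8% are shared with other genes on the same strand, so part of its counts could belong to HOXC5 or HOXC6, whose counts were 0 in all libraries for HOXC5 and 4, 0, 2 and 6 for HOXC6. After removal of trends on transcript length and GC content its differences were -1.5, -2.31 and -1.16.

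HOXC13, which drives keratin genes in hair and nails, was also called lower. It is ENSG00000123364.5 on chromosome 12 from 53938765 to 53946544, plus strand, at the other end of the cluster from HOXC4. It had 79, 97, 46 and 48 counts, or 3.29 CPM (2.35 to 4.49) against 1.56, 0.771 and 1.54 CPM. The labelled knockdown mean was 1.29 ± 0.449 CPM (SD, n = 3), and the upper limits of all 3 lay below the control's interval.

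The ratios of HOXC13 were 0.473 (0.305 to 0.740), 0.234 (0.134 to 0.401) and 0.467 (0.269 to 0.795), and none of the intervals held 1. Its mean log2 difference was -1.39 ± 0.56. After the trends were removed its differences were -0.82, -1.83 and -0.59, so the call ended, as it did with total counts or upper quartiles as the scale. HOXC13-AS, the antisense transcript beside it, had 24, 14, 12 and 8 counts, and reads of the pair are told apart only if strand was used in counting.

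HOXC8, a thoracic gene of the same cluster, had 14, 0, 0 and 7 counts and did not enter. The empty vector library and replicate 3 held all of them. The other 6 HOXC genes had at most 6 counts in a library. Between HOXC4 and HOXC13 the cluster was thus close to empty in these cells.

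In HOXB, HOXB1, which patterns the hindbrain segment of the facial nerve, stood below the empty vector library in all 3 labelled knockdown libraries. It is ENSG00000120094.9 on chromosome 17 from 48528526 to 48531001, minus strand. It had 78, 110, 84 and 34 counts, or 3.25 (2.31 to 4.44), 1.77, 1.41 and 1.09 CPM. The ratios were 0.544 (0.354 to 0.842), 0.433 (0.273 to 0.688) and 0.335 (0.178 to 0.606). None of these intervals held 1, but replicate 1 did not reach 2-fold and the gene was not called. It was called lower with a 1.5-fold rule, with a rule on the mean, and without replicate 1. The mean log2 difference was -1.19 ± 0.34, or -0.80 with the length and GC trends removed.

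HOXB1 was also the 1 gene of the 11 for which replicate 3 held the lowest level. HOXB2, its neighbour in the hindbrain, had 26, 62, 72 and 46 counts at 1.08, 0.996, 1.21 and 1.47 CPM, and no interval of its ratios excluded 1. HOXB3 had 25, 30, 23 and 54 counts at 1.04, 0.482, 0.385 and 1.73 CPM. It stood in replicate 3 at 3.59 times replicate 1 (1.84 to 7.26) and 4.49 times replicate 2 (2.18 to 9.87).

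The middle of HOXB, paralogs 4 to 8, had 18, 12, 25 and 112 counts in all, so most of what was seen came from replicate 3. HOXB4 had 4, 2, 0 and 12 counts, HOXB5 had 0, 0, 0 and 12, HOXB6 had 4, 0, 0 and 56, HOXB7 had 6, 8, 25 and 12, and HOXB8 had 4, 2, 0 and 20. The summed level of these 5 genes in replicate 3 was 4.78 times that of the empty vector library (2.35 to 11). HOXB6 alone stood at 10.8 times (2.71 to 93.2). For HOXB5 the level interval in replicate 3, 0.141 to 0.836 CPM, overlapped that of the control, which reached 0.307 CPM. HOXB7 differed from the rest in that replicate 2 held the most counts.

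HOXB9, a thoracic gene, had 14, 46, 68 and 68 counts at 0.583, 0.739, 1.14 and 2.18 CPM. In replicate 3 the ratio to the control was 3.73 (1.63 to 9.98), and the intervals in replicates 1 and 2 held 1. HOXB13, a gene of the tail bud and the prostate, had 58, 123, 128 and 88 counts at 2.42, 1.98, 2.14 and 2.82 CPM. All 3 of its ratio intervals held 1, and its mean log2 difference was -0.08, which became 0.01 with total counts as the scale and 0.04 after the trends were removed.

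HOXD held the most HOX transcripts, and its tailward genes held most of those. Per kilobase of exon, HOXD13 at 1.90 (1.41 to 2.49) and HOXD10 at 1.83 (1.39 to 2.36) CPM per kb ranked first and second of all HOX genes in the empty vector library, and their intervals overlapped. HOXC13 at 1.36 (0.968 to 1.85) and HOXB1 at 1.31 (0.933 to 1.79) came next and also overlapped those. In the labelled knockdown libraries the order of the mean level was HOXD10 at 3.09 ± 1.15, HOXD13 at 2.50 ± 2.61, HOXD11 at 1.09 ± 0.843 and HOXD12 at 1.05 ± 0.491 CPM per kb (SD, n = 3). The order differed between these libraries: HOXD10 exceeded HOXD13 in replicate 1, at 2.36 against 0.853, and in replicate 2, at 2.50 against 1.14, but not in replicate 3, at 4.41 against 5.52. HOXD11 was at 0.457, 0.770 and 2.05 CPM per kb, and HOXC13 at 0.643, 0.318 and 0.634.

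HOXD10, which acts in the limb and in motor neurons of the lumbar cord, is ENSG00000128710.6 on chromosome 2 from 176108790 to 176119942, plus strand. It had 118, 396, 402 and 371 counts, or 4.92 (3.74 to 6.34), 6.36, 6.73 and 11.9 CPM. All 3 labelled knockdown libraries lay above the control. The ratios were 1.29 (0.963 to 1.76), 1.37 (1.02 to 1.86) and 2.42 (1.79 to 3.30), so only replicate 3 passed 2-fold. Of its exon bases, 16.8% are shared with HOXD11 on the same strand.

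HOXD13, the most tailward gene of the cluster and one that shapes digits and genitalia, gave the widest spread of the well counted genes. It is ENSG00000128714.6 on chromosome 2 from 176092891 to 176095938, plus strand. It had 102, 119, 153 and 386 counts, or 4.25 (3.16 to 5.59), 1.91, 2.56 and 12.4 CPM. Replicates 1 and 2 lay below the control, at 0.450 (0.304 to 0.667) and 0.603 (0.418 to 0.877) times its level, and replicate 3 lay above it, at 2.91 times (2.13 to 4.04). Between labelled knockdown libraries, replicate 3 stood at 6.47 times replicate 1 (4.81 to 8.80) and 4.82 times replicate 2 (3.68 to 6.37). The mean log2 difference of -0.11 therefore describes no library.

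HOXD11, a gene of the forearm, had 33, 60, 97 and 135 counts at 1.37, 0.964, 1.62 and 4.32 CPM, and its ratio in replicate 3 was 3.14 (1.81 to 5.76). HOXD12, expressed with HOXD13 in the digits, had 22, 62, 64 and 68 counts at 0.916, 0.996, 1.07 and 2.18 CPM, and its ratio in replicate 3 was 2.38 (1.18 to 5.20). For both, the ratio intervals in replicates 1 and 2 held 1. HOXD9 had 21, 71, 84 and 46 counts at 0.875, 1.14, 1.41 and 1.47 CPM, above the control in each library by a mean log2 difference of 0.58 ± 0.19, and each ratio interval held 1. With the length and GC trends removed, the mean difference of HOXD9 was 1.03 ± 0.32 (SD). It was 1.01 ± 0.69 for HOXD10, 0.98 ± 1.23 for HOXD11 and 1.03 ± 0.82 for HOXD12. In those genes replicate 3 was highest, at 1.80, 2.35 and 1.98, against at most 0.63 in replicates 1 and 2.

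Of the other HOXD genes, HOXD1 had 19, 8, 10 and 19 counts at 0.791, 0.128, 0.168 and 0.608 CPM, with replicates 1 and 2 below the empty vector library and replicate 3 not distinguishable from it. HOXD3 had 14, 63, 65 and 40 counts at 0.583, 1.01, 1.09 and 1.28 CPM, and HOXD4 had 24, 42, 10 and 41 at 1.00, 0.675, 0.168 and 1.31 CPM. HOXD3 and HOXD4 share 62.2% and 80.5% of their exon bases with other genes on their strand, mainly each other, so their counts are uncertain. HOXD8 had 4, 30, 14 and 12 counts.

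In HOXA, the tailward genes were seen almost only in replicate 3. HOXA9, known from blood progenitors, had 0, 0, 0 and 24 counts, HOXA10, a gene of the uterus, had 0, 2, 2 and 15, and HOXA13, a gene of the hindgut and the digits, had 2, 11, 0 and 36. The level of HOXA9 there was 6.15 times the control's floor of 3 counts, or 3.07 times a floor of 6. Its interval, 0.397 to 1.34 CPM, lay above the control's upper limit of 0.307 CPM. The level interval of HOXA10 in replicate 3, 0.200 to 0.966 CPM, overlapped that of the control, which reached 0.307 CPM. The ratio of HOXA13 was 13.8 (2.18 to 576), an interval set by 2 counts in the control. HOXA7 had 0, 6, 18 and 4 counts, so the highest was replicate 2.

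Replicate 3 held the highest level of the 4 libraries for 19 of the 27 genes and for 8 of the 11 that entered. HOXA9, HOXA10, HOXB4, HOXB5, HOXB6 and HOXB8 reached 10 counts only there, so the filter partly fixed this number and those below. Without replicate 3, 9 HOX genes entered. The ratio interval of replicate 3 to the empty vector library lay above 1 for 10 genes. Among them were HOXA9, HOXA10, HOXA13, HOXB6, HOXB9, HOXD10, HOXD11, HOXD12 and HOXD13. It lay below 1 for HOXB1, HOXC4 and HOXC13. Against both other labelled knockdown libraries it lay above for 17 genes and below for 0. For replicate 1 against the control, 0 of 25 genes lay above and 6 below, and for replicate 2 there were 1 above, HOXD10, and 8 below. Replicates 1 and 2 differed from each other in 4 of 23 genes, with HOXD11 higher and HOXA13, HOXC13 and HOXD4 lower in replicate 2. HOXB1, HOXC4 and HOXC13 were the 3 genes whose intervals lay below 1 in all 3 labelled knockdown libraries. No share over all genes was taken for the highest level in replicate 3 or for these intervals, so the numbers do not set HOX genes apart. The intervals cover counting error only.

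The noncoding RNA genes inside the clusters were taken as a list of 24. Of these, 17 had fewer than 10 counts in all libraries, 1 entered, and 0 were called higher or lower (3.65% and 2.72% over all genes). The gene that entered, HAGLR, runs antisense to HOXD1 and HOXD3 and had 680, 885, 905 and 1010 counts at 28.3, 14.2, 15.2 and 32.3 CPM. It had more counts than any HOX gene in each library. Its ratio was 0.502 (0.435 to 0.580) and 0.535 (0.464 to 0.618) in replicates 1 and 2 and 1.14 (0.993 to 1.31) in replicate 3, the same order as for HOXD1 beside it.

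HOTAIRM1, a noncoding transcript of the HOXA cluster, had 2, 22, 29 and 51 counts, and the ratio in replicate 3 was 19.6 (3.21 to 804), an interval set by 2 counts in the control. HOXB-AS1 had 0, 8, 16 and 13 counts, HOXB-AS4 had 13, 12, 0 and 29, HOXD-AS2 had 2, 9, 2 and 16, and HAGLROS had 32, 22, 22 and 18. HOTAIR, which is antisense to HOXC11, had 4, 0, 0 and 0. HOTTIP, beside HOXA13, had 0, 4, 0 and 2 counts, against 36 for HOXA13 in replicate 3.

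**Figure D4:**
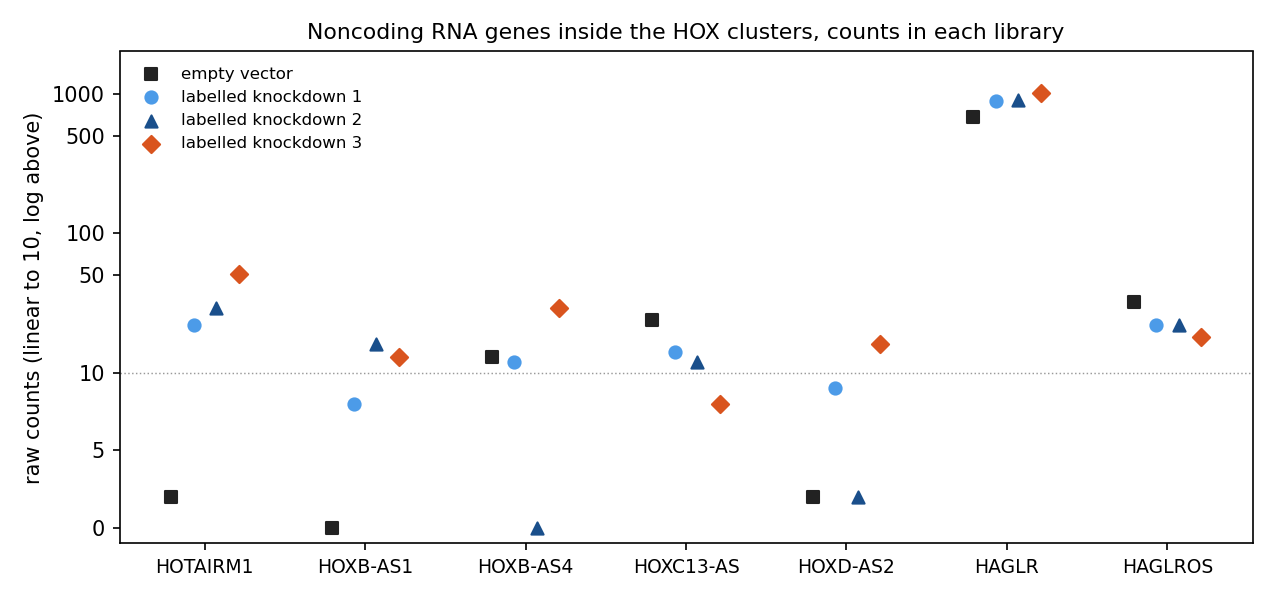
Raw counts in each library of the 7 noncoding RNA genes inside the HOX clusters that had at least 10 counts in a library. The vertical axis is linear to 10 and logarithmic above, and library totals differ. HAGLR holds 680 to 1010 counts, and HOTAIRM1 holds 2 counts in the empty vector library and 51 in labelled knockdown replicate 3.

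The clusters also hold microRNA genes, whose mature products target HOX messages. MIR10A, MIR196A1, MIR196A2, MIR196B and MIR615 had 0 counts in all 4 libraries and MIR10B had 2 in replicate 2, in libraries not made to capture mature microRNAs. The mature sequences of the 3 with a well known HOX link are shown, from RefSeq on GRCh38.p14, with the seed (bases 2 to 8) in capitals. The seed AGGUAGU is shared by the products of MIR196A1, MIR196A2 and MIR196B, which lie in HOXB, HOXC and HOXA.
miR-196a-5p: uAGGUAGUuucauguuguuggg
miR-196b-5p: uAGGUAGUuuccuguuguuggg
miR-10a-5p: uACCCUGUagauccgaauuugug

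Of 18 genes flanking the clusters, 12 entered, 1 was called higher and 0 lower (3.65% and 2.72% over all genes). Their median log2 differences were -0.45, -0.35 and -0.62 in replicates 1, 2 and 3, beside -0.49, -0.17 and 0.72 for the HOX genes that entered, and the difference between the groups was not tested. The gene called was CBX5, which encodes a heterochromatin protein and lies beyond HOXC, at 705, 1485, 1497 and 1477 CPM, and with the length and GC trends removed its log2 differences were 0.38, 0.44 and 0.27, short of 2-fold. EVX1, a homeobox gene at the tailward end of HOXA, had 0, 6, 10 and 158 counts. Its level in replicate 3 was 40.5 times the control's floor of 3 counts, or 20.2 times a floor of 6. The counts of EVX1 were chosen for mention after they were seen.

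The TALE proteins bind DNA together with HOX proteins. All 11 listed genes entered, 1 was called higher and 0 lower, with a median of 0.14. Here and in the lists that follow, the shares over all genes were 3.65% higher and 2.72% lower. PKNOX2 was the gene called, at 8.54, 27.2, 23.3 and 33.6 CPM.

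Of 16 upstream regulators of HOX genes, 10 entered, 1 was called higher and 0 lower, with a median of 0.51. The gene called was RARB, a retinoic acid receptor that is itself a retinoic acid target, at 3.17, 9.04, 8.66 and 12.5 CPM. CDX2, which activates the middle and tailward HOX genes, had 12, 66, 48 and 98 counts, and its ratio to the control was 6.28 (2.69 to 17.9) in replicate 3, with the intervals in replicates 1 and 2 holding 1. CDX4 had 38, 8, 2 and 5 counts. CYP26A1, which breaks down retinoic acid, had 22, 138, 167 and 10 counts, TBXT, the mesoderm gene brachyury, had 6, 0, 0 and 36, and FGF8 had 4, 4, 6 and 40. Replicate 3 thus stood apart from replicates 1 and 2 in these genes too.

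Among 30 subunits of the Polycomb complexes that hold HOX genes silent, all 30 entered, 0 were called higher and 1 lower, with a median of 0.00. PCGF6 was the 1 called, at 41.0, 19.2, 19.8 and 17.4 CPM, and with the length and GC trends removed its log2 differences of -0.96, -0.97 and -0.71 fell short of 2-fold. EZH2, the methyltransferase, was at 122, 123, 131 and 136 CPM. Of 13 genes for trithorax proteins, H3K27 demethylases and CTCF, which oppose Polycomb or bound its domains, all 13 entered and 0 were called, with a median of -0.10. The largest mean differences there were in KMT2A, at 109, 219, 212 and 473 CPM, and DPY30, at 53.5, 26, 31.2 and 19.9 CPM. With the trends removed, KMT2A differed by 0.24, 0.25 and 1.00 on the log2 scale, and KDM6B, a demethylase, by more in replicates 1 and 2, at 0.99 and 0.95.

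Cell type markers differed between the libraries as well. Of 9 pluripotency markers, 1 was called lower, DNMT3B, and their median difference was -0.08, -0.03 and -0.89 in replicates 1, 2 and 3, with summed levels of 8119, 9005, 9157 and 7472 CPM. LIN28A, NANOG, SOX2 and POU5F1 were present in all 4 libraries, and ZFP42 had 4, 4, 4 and 2 counts. Of 9 neural markers, PAX6 and MAP2 were called higher and 0 lower, with summed levels of 191, 365, 343 and 322 CPM, SOX1 at 2, 19, 18 and 2 counts and NEUROD1 at 4, 2, 0 and 0. The call of MAP2 ended with the trends removed, at 0.76, 0.73 and 1.24.

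Of 8 mesoderm markers, PRRX1 was called higher, with summed levels of 99.8, 136, 119 and 156 CPM. Of 7 endoderm and trophoblast markers, 0 were called, with summed levels of 27.7, 54.7, 51.3 and 84.2 CPM, FOXA2 at 0, 0, 0 and 2 counts and CGA at 2, 0, 0 and 0. Replicate 3, with the most HOX transcripts, also held the lowest pluripotency sum and the highest mesoderm, endoderm and trophoblast sums, but single genes made up much of these: COL1A1 gave 110 and GATA3 71.3 CPM there. Other members ran against the sums, with KRT7 at 7.17, 11.4, 12.3 and 4.45 CPM and the pluripotency marker PODXL at 1838, 2566, 2461 and 3866 CPM. The part of these cell types in the HOX values was not tested.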

How the data were processed

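RNA-seq of NT2 cells was deposited as 1 table of raw counts per library, for 1 empty vector library and 3 labelled as HYDIN2 knockdown. Libraries were made with a KAPA kit from rRNA-depleted total RNA and kept strand through dUTP, per the labels' protocols. The submitters' processing notes name STAR 2.7.11b, featureCounts 2.0.6, DESeq2 and hg38 (GRCh38), without their settings. The annotation release, the strand setting and the counting of read pairs are not given in the sources used here. The columns carry the names of a LacZ control and of GKAP_KIF27 sets, per the file headers, which differ from the sample labels, and tables were matched to samples through the series record.

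Between 65.2% and 68.0% of nonzero counts were even, as when each pair adds both its reads, so counts were divided by 2 for the 95% intervals. Those of levels are exact Poisson and those of shares and ratios Clopper-Pearson, and they cover counting error only. Counts of 0 were given a floor of 3 counts, or 6 if pairs were counted. CPM used TMM scaling (R 4.3.3, edgeR 4.0.16) with factors of 0.953, 0.990, 0.969 and 1.094 for the empty vector library and labelled knockdown replicates 1, 2 and 3. Log2 CPM used a prior count of 2.

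Without a second control library no p-value per gene is given. A gene entered with a mean of the group mean CPMs of at least 1 and was called by 2-fold or more, in the same direction, in all 3 labelled knockdown libraries. Numbers of calls were also taken from edgeR's quasi-likelihood test, from limma 3.58.1 with voom and from DESeq2 1.42.0 with its Wald test, all with Benjamini-Hochberg adjustment at 0.05. Alternatives covered scaling, filters, prior counts, the fold, removal of length and GC trends (lowess, span 0.3) and leaving out each labelled knockdown library. Gene positions, exons and lengths came from GENCODE 29 on GRCh38, and promoter and microRNA sequences from RefSeq. The fold rule and the edgeR test were tested on simulated data. Named were the HOX genes with at least 10 counts in a library and, from each list, the called genes or, with none, the 2 with the largest mean difference, and further list genes chosen after their values were seen. The members and lists were chosen with earlier results of these data known. Some genes enter the sums and counts but are not reported here singly.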

Additional observations from a re-analysis of the deposited data

How the results depend on the processing

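HOXC4 was called lower under every alternative tried for the fold rule. HOXC13 was not called with total counts as the scale, with upper quartile scaling or with length and GC trends removed, which left 1 HOX gene called lower in each. Without a filter on low counts, 2 HOX genes were called higher and 4 lower, among genes of few counts. Over all genes, higher and lower calls numbered 580 and 432. They were 1605 and 1035 with a mean of at least 0.1 CPM, 2526 and 1810 without a filter, 1590 and 1526 with a 1.5-fold rule, 1356 and 1074 with a rule on the mean, and 455 and 228 with the trends removed. Total counts as the scale gave 734 and 312, DESeq2 size factors 551 and 465. Without 1 labelled knockdown library, higher calls ran from 615 to 1542 and lower calls from 485 to 846, and HOX lower calls from 2 to 3. DESeq2 called 388 genes, 0 of them HOX, but 18 of 27 HOX genes had no adjusted p. edgeR called 17 to 11177 genes, and 0 to 6 HOX genes, without 1 library, the largest numbers without replicate 3. The cluster sums moved by less than the spread between libraries in the alternatives run on them: scalings, prior counts and leaving out 1 library. Trend removal was not run on the sums. Without replicate 3 that spread fell from 1.62 to 0.11 for HOXA, from 0.58 to 0.09 for HOXB and from 0.76 to 0.10 for HOXD. For HOXC it was 0.57 and then 0.59. Among the 27 named HOX genes, the mean difference changed sign in 3 with a scaling, prior count or trend removal (HOXB6, HOXB13 and HOXD13) and in 8 without 1 library (among them HOXA13, HOXB6, HOXB7, HOXB8, HOXB13, HOXD11 and HOXD13). Trend removal for single HOX genes was chosen after seeing the data. The cause was not tested. No paired analysis was possible because only 1 control library was analysed here. The mean level of 28 of 39 HOX genes was under 1 CPM, where counting intervals are wide.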

Other observations

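Other homeobox families, which pattern the head and forebrain where HOX genes are silent, were taken as a list of 20 genes. Of these, 7 entered, 2 were called higher and 0 lower (3.65% and 2.72% over all genes), with a median mean log2 difference of 1.94. DLX2, a forebrain interneuron gene, was called at 2.12, 17.9, 15.2 and 7.36 CPM, and EMX1, a gene of the dorsal forebrain, at 0.417, 2.33, 2.50 and 0.960 CPM. For both, labelled knockdown replicate 3 was the lowest of the 3, where most HOX genes had their highest level. DLX5, by contrast, had 12, 52, 66 and 284 counts and EN1, a midbrain gene, 24, 98, 86 and 197. OTX2 was at 37.6, 68.9, 68.3 and 73.1 CPM and was not called. LHX2, which also entered, ran against the median, at 15.2, 4.91, 4.64 and 18.8 CPM. Its mean log2 difference was -1.01 ± 1.13 (SD), with replicate 3 above the control.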
